A study of Rattus norvegicus with 4 samples.

Results

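The genes described here are those of the Notch pathway at its core, 3 receptors (Notch1, Notch2, Notch3), 4 ligands (Jag1, Jag2, Dll1, Dll3) and 3 genes of the Hes and Hey families (Hes1, Hes6, Hey1). They were taken by symbol from the 25810 gene rows of the count files. Of the 10 genes 8 had a row, and Hes1 and Hey1, for which no row was found by symbol or by an older symbol, were not analysed here. Some rows carry names ending in _RAT, which this search did not match to symbols, so either gene may be held under another name. The study compared RNA of a pair of clones of PC12, a rat pheochromocytoma line that grows as chromaffin-like cells and is used as a neuronal model. The clone wtPC12 has low levels of the repressor REST and the clone hrPC12 spontaneously has high levels. Each clone was sequenced in 2 libraries, with no treatment or transfection named for either. With 1 clone for each REST level, REST cannot be told apart from whatever else distinguishes the clones. No label says whether the libraries of a clone came from separate cultures, and p values therefore measure the spread between these libraries only.

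Notch receptors are membrane proteins that bind ligands of the Jagged and Delta-like families on a neighbouring cell. Binding allows proteases to cut the receptor, and the freed intracellular part enters the nucleus, joins the DNA-binding protein RBPJ and activates target genes, among them Hes and Hey genes, which code for repressors of the bHLH type. In the nervous system this signal holds back proneural factors and keeps precursors undifferentiated.

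The libraries held 20975027 to 27246502 reads on genes. Values are read counts normalized with edgeR's TMM factors, and fold changes are hrPC12 over wtPC12 on a log2 scale (log2 FC), given with their standard error (SE). Levels were not compared between genes, because the counts are not corrected for transcript length. A gene is called DE where its adjusted p was under 0.01 and its log2 FC lay past 2 in either direction, and is said to have risen or fallen where its adjusted p was under 0.05. Rest itself had 43.0 and 132 normalized counts in the wtPC12 libraries and 964 and 915 in the hrPC12 libraries (log2 FC 3.42, SE 0.57, adjusted p = 0.0115, edgeR quasi-likelihood test). Leaving out replicate 1 of wtPC12 gave Rest a log2 FC of 2.80, and leaving out its replicate 2 gave 4.44. Of 6 tested chromaffin markers 5 were DE and lower in hrPC12. The remaining gene, Ddc, was higher in both hrPC12 libraries but not called (adjusted p = 0.322, edgeR quasi-likelihood test). The summed level of the chromaffin list was 814643 to 952888 normalized counts in wtPC12 and 45708 to 50282 in hrPC12. The list of mesenchymal markers went from 133 to 176 up to 86728 to 91345, with 5 of its 8 genes DE and higher, Lum at 0 in wtPC12, and Dcn lower in hrPC12 (adjusted p = 0.0182, edgeR quasi-likelihood test). The muscle list went from 347 to 604 up to 4279 to 4789, with 3 of 6 tested genes DE and higher. Its gene Des was lower in both hrPC12 libraries but not called (adjusted p = 0.0527, edgeR quasi-likelihood test), and Tnnt2 and Chrna1 overlapped between the clones. These sums rest mostly on the gene of each list with the most counts. Chgb held 687936 and 626776 in wtPC12, and in hrPC12 Col3a1 held 83801 and 88143 and Myod1 3258 and 3576. The endothelial list went from 97.7 to 115 up to 630.4 to 647, with Vwf as its DE gene and Pecam1 at no more than 2 reads in any library. Leukocyte markers summed to 35.0 to 39.6 and 85.5 to 96.1, with Ptprc at 0 reads in wtPC12 and at most 1 in hrPC12, and glial markers to 172 to 179 and 237 to 257, with Sox10 at 0 in all libraries. The part of these changes in the results below was not tested.

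The receptor genes Notch1 and Notch2 were higher in hrPC12. Notch1 had 23.3 and 38.1 normalized counts in the wtPC12 libraries (replicate 1 first, here and below) and 594 and 542 in those of hrPC12. Both hrPC12 libraries lay far above both wtPC12 libraries, whose values rest on only 20 and 37 reads. The means were 30.7 ± 10.5 (SD, n = 2) and 568 ± 36.7 (SD, n = 2), and the log2 FC was 4.20 (SE 0.37, adjusted p = 0.00172, edgeR quasi-likelihood test), or 18.4-fold. Notch1 was DE, and remained so with glmTreat of edgeR, whose null hypothesis is a fold change within the threshold. In bulk RNA, fewer cells with a transcript and less of it per cell cannot be told apart.

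Notch2, a close relative of Notch1, had the largest log2 FC of the 6 tested genes and also the largest SE. It had 45.4 and 225 normalized counts in the wtPC12 libraries and 3630.0 and 3259 in the hrPC12 libraries. The clones did not overlap, but wtPC12 replicate 1 held 20.2% of the level of replicate 2. The log2 FC was 4.66 (SE 0.77, adjusted p = 0.0114, edgeR quasi-likelihood test), or 25.4-fold. Notch2 thus rose, and missed the adjusted p threshold for DE. It passed that threshold with DESeq2, with every gene tested, with RLE factors, with library totals alone or with edgeR's legacy option off. Without wtPC12 replicate 1 its log2 FC was 3.91 and without wtPC12 replicate 2 it was 6.24. A ratio of wtPC12 replicate 1 to replicate 2 as low as that of Notch2 was found in 0.962% of the tested genes. That ratio moved with the length of a gene on the chromosome. With genes split by span in GRCr8 into 4 groups of equal size, its median was 1.24 in the group of the shortest spans and 0.773 in that of the longest, to which Notch2 belongs, with a span of 133 kb. Spans were found for 65.6% of the tested genes. Rest held 32.6% of the level of replicate 2 in replicate 1, although it belongs to the group of the next shortest spans, where the median was 1.11. The part of this difference between the wtPC12 libraries in the result for Notch2 was not tested.

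Notch3 was at the limit of detection. It had 0 reads in both wtPC12 libraries, 2 reads in hrPC12 replicate 1 and 0 in hrPC12 replicate 2. Up to 3 reads, the limit that a count of 0 allows, correspond to 2.54 to 3.49 normalized counts depending on the library, so a difference in Notch3 was not detectable at this depth. As reads without molecular identifiers are not separate molecules, such limits are limits of counting alone.

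**Figure D1:**
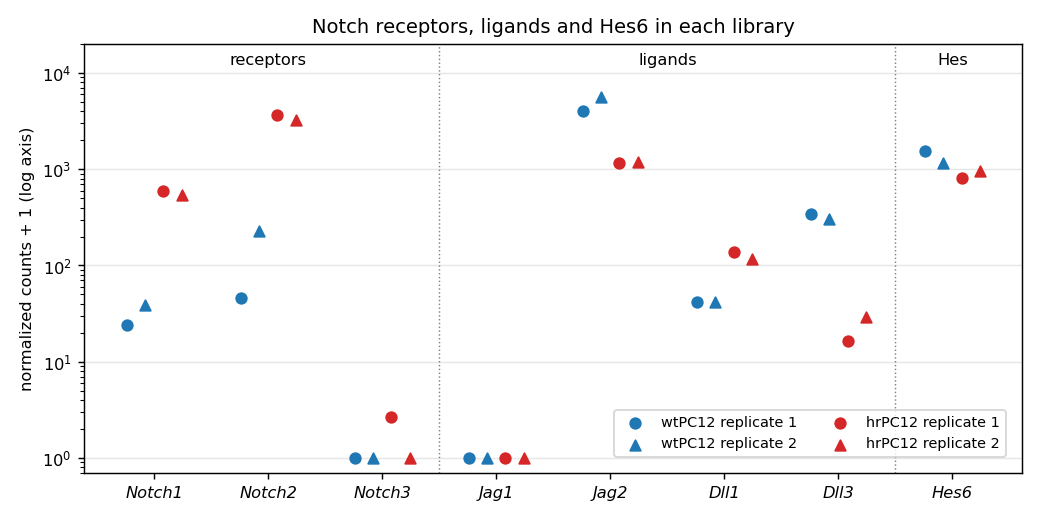
Normalized counts plus 1, on a log axis, of the 8 genes with a row in the count files, with 1 point per library (blue for wtPC12, red for hrPC12, circles for replicate 1 and triangles for replicate 2). Notch1, Notch2 and Dll1 were higher in both hrPC12 libraries, Jag2, Dll3 and Hes6 were lower in both, and Notch3 and Jag1 lay at or near 0.

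The ligand genes did not change in one direction. Jag2, a ligand of the Jagged family, had 3990.0 and 5598 normalized counts in wtPC12 and 1166 and 1196 in hrPC12. Both hrPC12 libraries lay below both wtPC12 libraries and close to each other. The means were 4794 ± 1137 (SD, n = 2) and 1181 ± 21.4 (SD, n = 2), and the log2 FC was −2.02 (SE 0.23, adjusted p = 0.00356, edgeR quasi-likelihood test), or 4.06-fold lower. Jag2 was DE with a fold change just past the threshold. The log2 FC was −1.96 with library totals alone and −1.76 without wtPC12 replicate 2, both within the threshold.

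Dll3, a divergent ligand of the Delta-like family that acts inside the cell as an inhibitor of the pathway, had 344 and 304 normalized counts in wtPC12 and 15.2 and 28.3 in hrPC12. The hrPC12 libraries kept 6.72% of the wtPC12 mean. The log2 FC of Dll3 was −3.90 (SE 0.42, adjusted p = 0.00327, edgeR quasi-likelihood test), or 14.9-fold lower, and Dll3 was DE. The values in hrPC12 rest on 18 and 28 reads.

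Dll1, which activates receptors on neighbouring cells, went the other way. It had 40.7 and 41.2 normalized counts in wtPC12 and 137 and 116 in hrPC12, with no overlap between the clones. The log2 FC was 1.63 (SE 0.33, adjusted p = 0.0208, edgeR quasi-likelihood test), or 3.09-fold. Dll1 rose, within the fold change threshold for DE. Its adjusted p was 0.0527 without wtPC12 replicate 2 and 0.0714 without hrPC12 replicate 1 (edgeR quasi-likelihood test). Jag1, a ligand of the Jagged family like Jag2, had 0 reads in all 4 libraries, which allows up to 3 reads in each.

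The letters upstream of the ligand genes can be set beside these values. The windows below hold the 250 bases before the RefSeq start of Dll1, Jag2 and Dll3, the ligand genes that moved, and of Notch1, in the rat assembly GRCr8, on the strand of the gene. Windows were found for 9 of the 10 genes. For Jag2 the more upstream of 2 listed starts was taken. Capitals mark TGGGAA, the core of the sequence bound by RBPJ, or TTCCCA, the same on the other strand. The window of Dll1 (the minus strand of chr1:64993275-64993524) held it at 2 positions, 185 to 180 bases before the start as TTCCCA and 82 to 77 bases before the start as TGGGAA. The windows of Jag2 (chr6:137826739-137826988, minus strand), Dll3 (chr1:92697317-92697566, minus strand) and Notch1 (chr3:29721614-29721863, minus strand) did not hold it. Of the 9 windows 2 held it, those of Dll1 and Hes1. The window of Notch2, which rose, did not. The core is found on either strand in 21.6% of the windows of all 27457 genes, so a match is common. TTCAGCACC, the left part of the RE-1 sequence bound by REST, was in 0.317% of all windows and in none of those of the 9 genes, which says nothing of sites elsewhere.
Dll1: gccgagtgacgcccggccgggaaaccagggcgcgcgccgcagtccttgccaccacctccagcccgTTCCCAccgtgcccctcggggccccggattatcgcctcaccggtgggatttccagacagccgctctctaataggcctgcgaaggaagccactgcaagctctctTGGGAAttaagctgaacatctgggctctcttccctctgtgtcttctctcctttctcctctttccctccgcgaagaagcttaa
Jag2: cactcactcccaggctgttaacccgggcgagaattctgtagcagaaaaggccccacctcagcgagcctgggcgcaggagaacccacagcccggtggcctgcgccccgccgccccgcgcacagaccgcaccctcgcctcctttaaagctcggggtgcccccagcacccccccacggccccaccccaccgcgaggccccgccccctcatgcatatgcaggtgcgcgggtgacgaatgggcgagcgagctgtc
Dll3: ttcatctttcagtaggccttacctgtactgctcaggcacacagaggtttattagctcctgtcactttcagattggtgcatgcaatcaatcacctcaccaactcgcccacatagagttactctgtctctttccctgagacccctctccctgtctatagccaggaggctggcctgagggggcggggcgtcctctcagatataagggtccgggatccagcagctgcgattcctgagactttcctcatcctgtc
Notch1: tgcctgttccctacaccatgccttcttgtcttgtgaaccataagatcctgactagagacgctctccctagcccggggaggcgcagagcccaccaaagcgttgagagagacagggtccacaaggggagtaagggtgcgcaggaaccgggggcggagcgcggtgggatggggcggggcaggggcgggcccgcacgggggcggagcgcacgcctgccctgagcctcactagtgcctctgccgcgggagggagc

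Of the Hes and Hey genes of this set Hes6 could be followed. Hes6 codes for a Hes protein that opposes Hes1 and favours neuronal differentiation. It had 1563 and 1157 normalized counts in wtPC12 and 803 and 950.1 in hrPC12. Both hrPC12 libraries lay below both wtPC12 libraries, by a margin smaller than that between the wtPC12 libraries themselves. The log2 FC was −0.63 (SE 0.24, adjusted p = 0.103, edgeR quasi-likelihood test). The adjusted p of Hes6 lay between 0.0556 and 0.472 with other settings of edgeR, with DESeq2 and with each library left out.

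Of the 6 tested genes 1 was DE and higher in hrPC12 (Notch1) and 2 were DE and lower (Jag2, Dll3), where 4.84% and 5.46% of the 13726 tested genes were DE in these directions and 10.3% in either. With an adjusted p under 0.05, 3 were higher (Notch1, Notch2, Dll1) and 2 lower, against 16.1% and 16.3% of the tested genes, or 32.4% in either direction. In all 6 the clones did not overlap, 3 of them higher in hrPC12 and 3 lower, as in 37.9% and 35.6% of the tested genes, or 73.5% in all, so the lack of overlap sets these genes little apart. Each of the 6 had a mean of at least 21.8 normalized counts in both clones, so none passed the filter on low counts through 1 clone alone. The median log2 FC was 0.50 over the 6 genes and 0.06 over all tested genes. With 6 genes that moved in both directions, this median describes none of them.

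**Figure D2:**
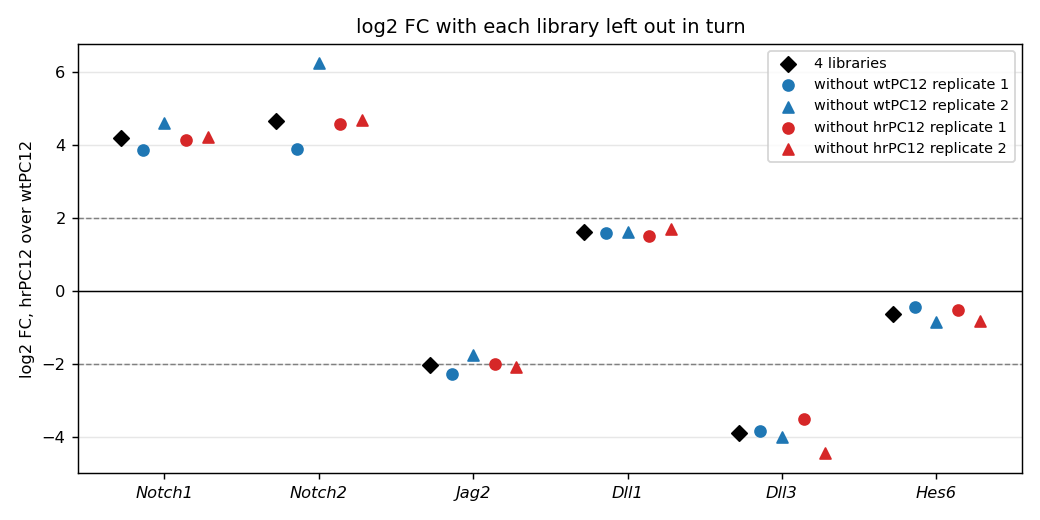
Fitted log2 FC (hrPC12 over wtPC12) of the 6 tested genes with all 4 libraries (black) and with each library left out in turn. Dashed lines mark a log2 FC of 2 in either direction. No gene changed sign, and Notch2 moved most, between 3.91 and 6.24.

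Another 68 genes of the pathway were listed by role, of which 55 had a row, 3 of them under an older symbol, and 44 passed the filter. DE genes numbered 2 higher (Lfng, Dtx3l) and 2 lower (Dlk1, Dlk2), that is 4 of 44, beside 10.3% of all tested genes. With an adjusted p under 0.05, 4 were higher and 9 lower, or 13 of 44, beside 32.4% of all tested genes, so these genes were called at about the rate of the whole table. Over the 44 genes the log2 FC had a median of −6.79e-05, against 0.06 over all tested genes.

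Among proteins that modify or cut the receptor on its way to the membrane, the change was largest in Lfng, a Fringe enzyme that adds a sugar to Notch and thereby shifts its response from Jagged towards Delta-like ligands. Lfng had 20.9 and 37.1 normalized counts in wtPC12 and 805 and 856 in hrPC12. Its log2 FC came to 4.83 (SE 0.38, adjusted p = 0.00128, edgeR quasi-likelihood test), or 28.4-fold, with no overlap between the clones. Mfng, another Fringe enzyme, fell. It had 609.5 and 550.1 normalized counts in wtPC12 and 195 and 194 in hrPC12 (log2 FC −1.58, SE 0.25, adjusted p = 0.00976, edgeR quasi-likelihood test), and was named after its values were seen. Furin, the protease that makes the receptor's early cut, fell as well (log2 FC −1.25, SE 0.16, adjusted p = 0.00560, edgeR quasi-likelihood test). Poglut1, listed as Ktelc1, which adds glucose to the receptor, had a log2 FC of −0.53 and an adjusted p of 0.0849, or 0.0453 without wtPC12 replicate 2 (edgeR quasi-likelihood test).

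The 250 bases before the start of Lfng (the minus strand of chr12:19152919-19153168, GRCr8, RefSeq) are shown because this gene had the largest increase among the tested genes of the list. They hold the RBPJ core at 2 positions, 150 to 145 bases before the start as TTCCCA and 123 to 118 bases before the start as TGGGAA. The latter lies in the longer form CGTGGGAA, found in 0.597% of the windows of all genes, and is in capitals with it. The longer form is also in the window of Hey2, 62 to 55 bases before the start, a gene that was not called. The core is found too in the windows of Dtx3l, which was DE and higher, Hes7, which fell, and Notch4, which was not called. For Hes7 the more upstream of 2 listed starts was taken. The windows of Dlk1 and Dlk2, which were DE and lower, did not hold the core. That of Hes5, which had reads in wtPC12 alone, held it. So did others of genes that were not called, among them Mib1, Snw1 and Poglut1. Whether a match goes with a direction was not tested.
Lfng: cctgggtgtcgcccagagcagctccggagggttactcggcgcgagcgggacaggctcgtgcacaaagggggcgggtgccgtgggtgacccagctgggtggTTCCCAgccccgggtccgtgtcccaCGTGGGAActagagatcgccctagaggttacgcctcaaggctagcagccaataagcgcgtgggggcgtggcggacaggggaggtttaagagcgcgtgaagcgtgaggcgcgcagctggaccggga

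Dlk1 and Dlk2, which code for Delta-like proteins that lack the part by which the canonical ligands bind Notch, were DE and lower. Dlk1 had 80703 and 53876 normalized counts in wtPC12 and 28.8 and 100.2 in hrPC12, and fell by 10.04 on the log2 scale (SE 0.79, adjusted p = 0.00128, edgeR quasi-likelihood test). The log2 FC of Dlk1 was −9.39 without hrPC12 replicate 1 and −11.23 without hrPC12 replicate 2. Dlk2 had 230.3 and 328 normalized counts in wtPC12 and 28.8 and 28.3 in hrPC12 (log2 FC −3.28, SE 0.36, adjusted p = 0.00329, edgeR quasi-likelihood test). Both hrPC12 libraries lay below both wtPC12 libraries for either gene. Dner, a further Notch-binding protein, had 0 reads in all libraries. The fourth receptor gene, Notch4, had 53.5 and 62.8 normalized counts in wtPC12 and 49.9 and 35.4 in hrPC12 (log2 FC −0.44, SE 0.39, adjusted p = 0.405, edgeR quasi-likelihood test).

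Of 7 listed genes of proneural bHLH factors, which Hes proteins hold back, 5 had 0 reads in all libraries, Neurod1 had 1 read in hrPC12 replicate 1, and Neurod4 had a mean of 5.35 normalized counts in wtPC12 and 6.84 in hrPC12 (adjusted p = 0.699, edgeR quasi-likelihood test).

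**Figure D3:**
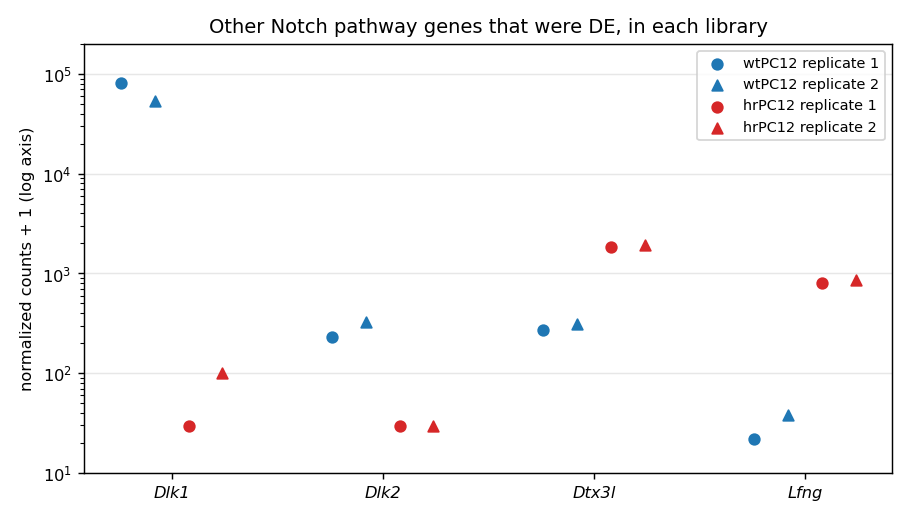
Normalized counts plus 1, on a log axis, of the 4 other pathway genes that were DE, with 1 point per library (blue for wtPC12, red for hrPC12, circles for replicate 1 and triangles for replicate 2). Dlk1 and Dlk2 were lower in hrPC12 than in wtPC12, and Dtx3l and Lfng higher, with no overlap of the clones.

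Of the further Hes, Hey and feedback genes on the list 3 were tested, and of these Nrarp and Hes7 fell. Nrarp, a target whose product limits the signal, had 471 and 501 normalized counts in wtPC12 and 219 and 245 in hrPC12 (log2 FC −1.07, SE 0.25, adjusted p = 0.0298, edgeR quasi-likelihood test). Its adjusted p was 0.197 without hrPC12 replicate 1 and 0.0971 without hrPC12 replicate 2 (edgeR quasi-likelihood test). Hes7, a Hes repressor known from the segmentation clock, had 74.4 and 81.4 normalized counts in wtPC12 and 22.0 and 12.1 in hrPC12 (log2 FC −2.17, SE 0.45, adjusted p = 0.0217, edgeR quasi-likelihood test). Its adjusted p was 0.0748 without wtPC12 replicate 2 and 0.0595 without hrPC12 replicate 2 (edgeR quasi-likelihood test). Hes5 had 9 and 6 reads in wtPC12 and 0 in both hrPC12 libraries, and Heyl had 0 reads in both wtPC12 libraries and 8 and 5 in hrPC12. Neither passed the filter. Hey2, a repressor of the Hey family, had 8.14 and 16.5 normalized counts in wtPC12 and 27.1 and 27.3 in hrPC12, with no overlap (log2 FC 1.12, SE 0.51, adjusted p = 0.149, edgeR quasi-likelihood test). Hes5, Heyl, Hey2, Dner and Neurod1 were named after their values were seen.

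Genes listed under receptor turnover and as corepressors moved in both directions. Dtx3l, a Deltex-like ubiquitin ligase that is also known as interferon-induced, had 269.9 and 313 normalized counts in wtPC12 and 1833 and 1944 in hrPC12, and was DE (log2 FC 2.69, SE 0.21, adjusted p = 0.00129, edgeR quasi-likelihood test). Dtx3, its relative, fell (log2 FC −1.38, SE 0.19, adjusted p = 0.00655, edgeR quasi-likelihood test). Among 10 tested genes listed as corepressors Tle5, under the name Aes, fell (log2 FC −1.13, adjusted p = 0.0142, edgeR quasi-likelihood test). Tle2 fell 3.99-fold (adjusted p = 0.00789, edgeR quasi-likelihood test). Hdac1 rose, with a log2 FC of 1.74 and an adjusted p of 0.0157 (edgeR quasi-likelihood test). The adjusted p of Tle5 was 0.110 without hrPC12 replicate 1 (edgeR quasi-likelihood test). The corepressor Ctbp1 had a log2 FC of −0.52 and an adjusted p of 0.0707, and Itch, a ubiquitin ligase that acts on the receptor, a log2 FC of 0.48 and an adjusted p of 0.283, or 0.0322 without wtPC12 replicate 2 (edgeR quasi-likelihood test).

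Of the 8 tested protease genes Adam17, which can shed the receptor's outer part, rose, with a log2 FC of 1.69 and an adjusted p of 0.0182 (edgeR quasi-likelihood test). Hdac1 and Adam17 lie among neighbouring genes, in the order of GRCr8, that had more counts in replicate 1 of hrPC12 than in its replicate 2. The median log2 ratio of these libraries over 7 neighbouring genes was 0.84 around either gene, and between −0.18 and 0.16 around the 6 tested genes of the core set. Without hrPC12 replicate 1 the log2 FC was 1.25 for Hdac1 and 1.19 for Adam17, in place of 1.74 and 1.69. With wtPC12 replicate 2 left out the adjusted p was 0.0956 for Hdac1 and 0.0952 for Adam17, and 0.0518 for Adam17 without wtPC12 replicate 1 (edgeR quasi-likelihood test). Adam17, Hdac1 and Tle2 were named after their values were seen.

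The gamma-secretase genes Aph1a and Ncstn, whose products belong to the complex that frees the intracellular part, had log2 FC of −0.05 (SE 0.17) and 0.05 (SE 0.18). The sign of Aph1a flipped with library totals alone. No tested gene of the ubiquitin ligases that act on ligands (Mib1 and Neurl1b among 3) and of the nuclear activators (Snw1 and Crebbp among 4) had an adjusted p under 0.05 (edgeR quasi-likelihood test). Without wtPC12 replicate 2 it was 0.0387 for Neurl1b and 0.0253 for Crebbp, with log2 FC of 1.20 and 1.19 in place of 0.47 and 0.27 (edgeR quasi-likelihood test). In wtPC12 replicate 1 Mib1 held 130.3 normalized counts and in replicate 2 it held 841, and Crebbp held 597 and 1664, the same order as for Notch2. Neurl1b (244 and 569) had that order too. Snw1 (3169 and 2446), Ncstn (3378 and 2733) and Aph1a (3834 and 3391) had the opposite order.

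**Figure D4:**
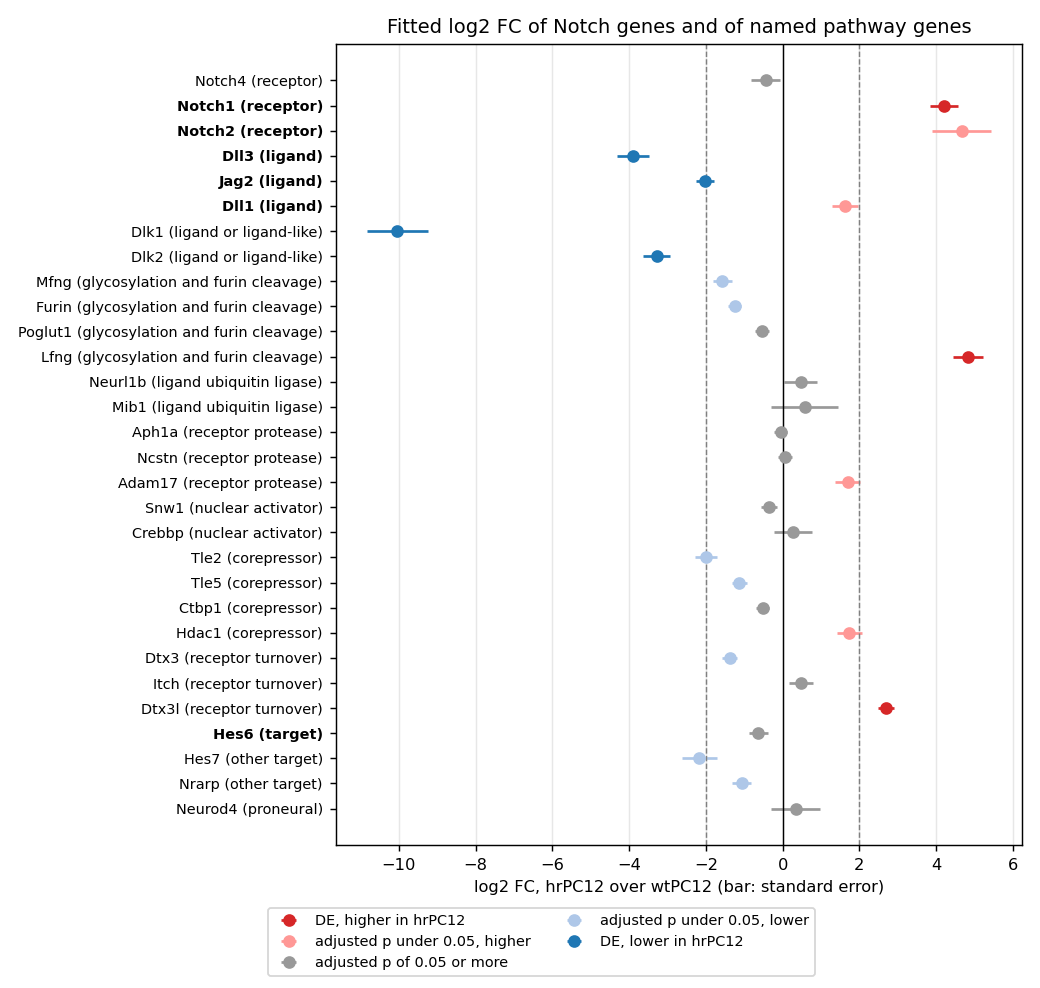
Fitted log2 FC (hrPC12 over wtPC12) with its standard error for the 6 tested core genes, in bold, and 24 other pathway genes, ordered by role and coloured by their call. Dashed lines mark a log2 FC of 2 in either direction. The largest increases shown were those of Lfng (4.83), Notch2 (4.66) and Notch1 (4.20), and the largest decrease that of Dlk1 (−10.04).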

How the data were processed

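RNA of the clones was sequenced in 2 libraries each from a kit that does not mark strand, so a gene and its antisense partner cannot be told apart. The authors aligned the reads to rat rn4 with TopHat2 2.0.4, counted them per gene (HTSeq 0.5.3 per the submitters' processing notes) and deposited raw counts per library, without normalization or filter. The 5 closing rows of each file, which name no gene, were left out; reads outside genes made up 49.9% to 55.9%. A table of the authors' DESeq comparison (means, fold changes, p values) was not used. 

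Reads on genes numbered 20975027 (replicate 1) and 21999191 (replicate 2) for wtPC12 and 27246502 and 21634943 for hrPC12, with TMM factors of 0.942 to 1.05. In R 4.3.3 with edgeR 4.0.16, genes whose mean over the libraries reached 5 normalized counts, and to which each clone gave at least 1 read, were compared with the quasi-likelihood test (legacy option on, common dispersion 0.0745) and Benjamini-Hochberg adjustment over the 13726 tested genes, in place of DESeq and with the study's thresholds. The standard error is the log2 FC divided by the root of the F statistic. A permutation test of 1 gene cannot give a p under 0.333. The tests were checked on simulated counts.

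The genes and lists, and the tests, were chosen with earlier results of these data known. Named are the core genes, Rest, the DE genes of the pathway list and the 2 genes with the most counts in each role; any other is said to be chosen after its values were seen. Some genes of the lists are not reported here. Alternatives were RLE factors, library totals, other filters, DESeq2 1.42.0, glmTreat, the legacy option off, a prior count of 2, a DE threshold of 0.05 on the adjusted p, and leaving out each of the libraries. For the last, the lone library of a clone is assumed to vary like the other clone's.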

Additional observations from a re-analysis of the deposited data

How the results depend on the processing

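None of the 6 tested core genes changed sign under any alternative tried. Other than with glmTreat, the adjusted p of Dll1 alone crossed 0.05, at log2 FC of 1.50 to 1.69 with each library left out. The number of core genes that were DE and higher in hrPC12 was 2 instead of 1, with Notch2 added, with DESeq2, with every gene tested, with RLE factors, with library totals alone, with the legacy option off or with an adjusted p under 0.05, and 0 to 2 with a library left out. The number DE and lower was 1 with library totals alone, 0 with glmTreat and 0 to 2 with a library left out. With glmTreat 1 core gene was higher and 1 lower at an adjusted p under 0.05. Of the other pathway genes 1 was DE and higher with glmTreat and 0 to 4 with a library left out, and 4 were DE and lower, instead of 2, with RLE factors or DESeq2 (Hes7 and Tle2 added), 1 with glmTreat and 0 to 4 with a library left out. Over all genes, 1127 were DE and higher with every gene tested, 1088 with an adjusted p under 0.05 and 321 with glmTreat, 0 to 962 with a library left out; 353 were lower with glmTreat and 0 to 859 with a library left out. The counts of 0 come from leaving out wtPC12 replicate 2, where edgeR's quasi-likelihood test gave 6798 genes an unadjusted p under 0.05 but no adjusted p under 0.0134. DESeq2 was not run with a library left out. The log2 FC of Aph1a was 0.019 with library totals alone. Leaving out 1 library at a time gave it values from −0.18 to 0.031, and gave Ncstn values between −0.094 and 0.18, Mib1 −0.26 and 2.47, Neurl1b −0.049 and 1.20, Crebbp −0.32 and 1.19, and Neurod4 −0.10 and 0.95. No paired analysis was possible because the labels give the clones no shared replicate numbers; the numbers used here follow the order of deposit and only name a library. Depth limits Notch3, Jag1, Hes5 and Heyl, which had at most 9 reads in any library.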

Other observations

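No row was found under the symbol Rbpj, the DNA-binding partner of the receptors. RefSeq gives Rbpsuh, the name of another row, as an older symbol of Rbpjl2. Whether that row counts Rbpjl2 or Rbpj was not tested. The row Rbpsuh had 532 and 1122 normalized counts in wtPC12 and 1051 and 1035 in hrPC12. The row Rbpjl had 776 and 689 in wtPC12 and 464 and 521 in hrPC12. Both rows were chosen after their values were seen and are given with no test.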
